A study of Mus musculus with 6 samples.

Results

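The genes described here are 10 genes of the circadian clock, taken by symbol from 54429 gene symbols measured in RAW264.7 cells, a macrophage-like mouse line established from a tumour that a leukaemia virus had induced. They are the activators Clock and Arntl, the repressors Per1, Per2, Cry1, Cry2 and Bhlhe40, the REV-ERB receptor genes Nr1d1 and Nr1d2, and the output gene Dbp, and all 10 symbols were found. Culture lasted 3 d, and 2 conditions were compared, with 3 RNA libraries each. In the control, Gel/S, they were static with GelMA, a gelatin hydrogel carrying methacryloyl groups. In C/D they were kept with GelMA/PEDOT:PSS+PLLA/PDA, which adds a conducting polymer blend and PLLA/PDA to the gel, under a dynamic condition made by ultrasound at 48 kHz for 5 min. The gel and the stimulation differ at once between the groups, and their parts in a difference cannot be told apart. Both groups are the same tumour-derived line and neither carries an engineered allele. The labels give no clock time of harvest, no synchronising treatment and no series of time points, so each library shows the clock genes at 1 moment of an unrecorded phase.

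The clock is a feedback loop of transcription. CLOCK and BMAL1, the product of Arntl, bind E-box sequences as a pair and switch on the Per, Cry, Nr1d and Dbp genes. PER and CRY proteins then return to the nucleus and block the pair, and DEC1, the product of Bhlhe40, competes with it at E-boxes. The REV-ERB proteins bind a sequence called RORE and repress Arntl, Clock, Cry1 and Nfil3, while the ROR receptors activate through the same sequence. DBP activates through D-boxes, at which the repressor NFIL3 opposes it. Macrophages have such a clock, and it times the release of cytokines and chemokines.

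Of the 10 genes, 4 rose in C/D, 2 fell and 3 did not pass the test, and Per2 was too low to be tested. Dbp rose most, 1.95-fold, and Clock (1.47-fold), Nr1d2 (1.39-fold) and Cry2 (1.24-fold) rose as well. Arntl, the partner of Clock, fell to 0.669 of its Gel/S level and Bhlhe40 to 0.640. Nr1d1 (1.52-fold), Cry1 (0.845-fold) and Per1 (1.04-fold) did not pass. The test was edgeR's quasi-likelihood test on the deposited counts, with Benjamini-Hochberg adjustment over 11708 genes and a threshold of 0.05. Over all those genes it called 27.0%, with 13.1% higher and 13.9% lower in C/D, against 6 of the 9 clock genes tested. The FPKM ranges of the groups did not overlap for 6 of the 9 clock genes (4 higher, 2 lower) and for 46.2% of all genes tested (19.1% higher, 27.1% lower). On the log2 scale the median change was 0.31 over the 9 genes and 0.01 over all tested genes. The authors' deposited table, with a test of the authors' own, lists 5 of the 10 genes at an adjusted p under 0.05 (3 higher and 2 lower in C/D), where 14.9% of its 21850 tested entries pass, and Cry2 is the gene it does not call (adjusted p = 0.133 there). Whether replicates came from separate cultures is not stated in the labels, and the p-values then cover only the spread among these libraries, which may be technical.

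**Figure D1:**
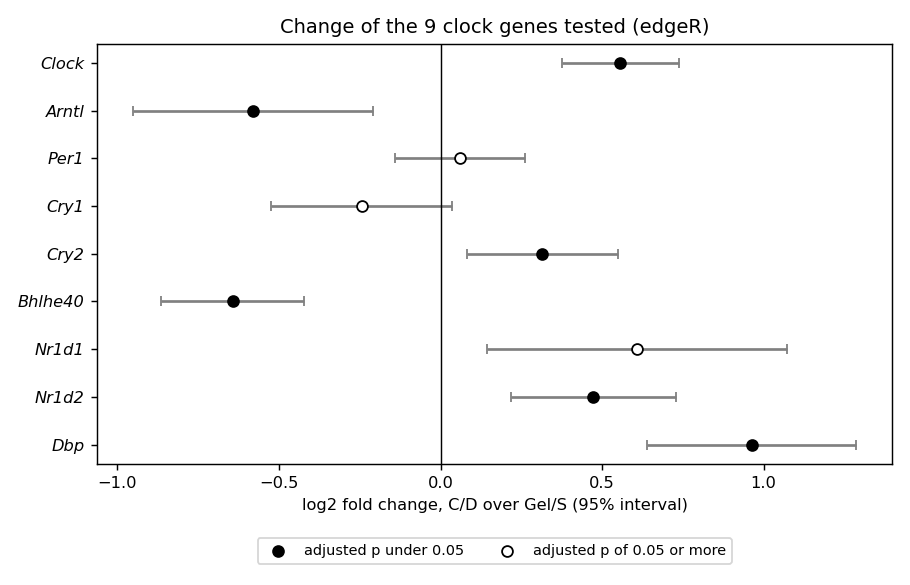
Log2 fold change of C/D over Gel/S (horizontal axis) for the 9 clock genes tested, as points with 95% intervals from the edgeR fit, filled where the adjusted p is under 0.05. Clock and Arntl lie on opposite sides of 0, and Dbp has the highest estimate at 0.96.

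Total counts were 12818831 to 16525699 per library, lowest in C/D 1 (the numbers after a group name are its replicates). Along the first principal component (55.8% of the variance) the groups separated, and Gel/S 1 stood farthest out at −34.6, against −11.3 and −17.7 for the other Gel/S libraries. Mitochondrial transcripts took 5.59%, 9.02% and 7.41% of counts in Gel/S 1 to 3 and 9.17%, 10.35% and 9.99% in C/D 1 to 3, so the groups did not overlap, and the part of this in the clock gene changes was not tested. Of all genes tested, 1532 rose and 1631 fell, and with limma on FPKM rescaled to a common total (TPM) the split was 633 and 1510. That scaling moved the median change over all tested genes to −0.12 (log2), so rises are smaller on it. Of 9 macrophage markers, 8 were at a mean of at least 1 FPKM, and their summed level was 13460 to 14060 FPKM in Gel/S and 10940 to 11110 in C/D, most of it Lyz2, which did not pass (edgeR adjusted p = 0.0649). Csf1r, the receptor for the growth factor of macrophages, was the 1 marker called, with a fall of 0.48 on the log2 scale (edgeR adjusted p = 0.00736), and shares 15.1% of its exon bases with a gene on the opposite strand. Mrc1, a mannose receptor, was below 1 FPKM (0.358). Fibroblast and epithelial markers summed to at most 0.0317 FPKM in any library, with Col1a2, Col3a1, Epcam, Krt18 and Cdh1 at 0 counts, and lymphocyte markers to at most 0.636. Of 6 osteoclast markers, which summed to 44.6 to 45.7 FPKM in Gel/S and 34.1 to 39.6 in C/D, Calcr had 0 counts and 2 were tested. Acp5, a phosphatase, rose (log2 fold change 0.53, edgeR adjusted p = 0.00818) and Dcstamp, a cell fusion gene, fell (−0.96, 6.29e-05). The lower sum in C/D comes from Dcstamp, with means of 29.9 and 14.9 FPKM. Ctsk (means of 0.180 FPKM in Gel/S and 0.404 in C/D) and Oscar (0.0907 and 0.360), too low to be tested, were higher in every C/D library. Mmp9 overlapped between the groups. These are bulk libraries, in which fewer cells of a kind and less RNA per cell cannot be told apart.

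Exact letter matches to elements through which clock proteins can act are shown here for each gene with a listed promoter window that holds one, whether or not the gene changed. The promoter windows are from RefSeq (GRCm38.p6) and run from 250 bases before to 50 after each start site. They were listed for 8 of the 10 genes, and for Per2 and Bhlhe40 none was listed. Both strands were searched for the E-box CACGTG, the related E-prime box CACGTT, the D-box TTANGTAA, the RORE core AGGTCA and the cyclic AMP element TGACGTCA. Each sequence below is 30 bases on the strand of its gene, 5′ to 3′, with the match in capitals; none of the matches overlap. The E-boxes and E-prime boxes were these, the latter reading AACGTG on the gene's strand.
Per1 E-box (chr11:69098771-69098800, plus strand): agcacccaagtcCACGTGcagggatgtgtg
Cry1 E-box (chr10:85185097-85185126, minus strand): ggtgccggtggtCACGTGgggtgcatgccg
Cry1 E-prime box (chr10:85185116-85185145, minus strand): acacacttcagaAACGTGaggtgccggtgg
Cry2 E-prime box (chr2:92434218-92434247, minus strand): acacatggtgggAACGTGagggggcggagc
Nr1d1 E-prime box (chr11:98775388-98775417, minus strand): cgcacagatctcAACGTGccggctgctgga
The Cry1 window holds both kinds, 60 and 79 bases before its start, and the match in Nr1d1 lies 28 bases before its start. The E-box was found in 2 of the 8 genes and in 7.15% of all 32817 mouse windows, and the E-prime box in 3 of the 8 genes and in 4.69% of windows. A gene was counted if any of its windows held the word, and Clock has 3 windows, Arntl 2 and Per1 2. Counts per gene and shares per window are thus unlike measures. Of the genes with either box, Cry2 passed the test, and Per1, Cry1 and Nr1d1 did not.

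The RORE core was found in 4 of the 8 genes, again counted per gene. It is the commonest of these words, present in 16.26% of all windows. The matches are in Arntl, which fell, in Nr1d2 and Clock, which rose, and in Per1, which did not pass. Whether REV-ERB proteins act through them in these cells was not tested.
Arntl RORE core (chr7:113207530-113207559, plus strand): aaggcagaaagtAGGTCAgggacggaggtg
Nr1d2 RORE core (chr14:18239166-18239195, minus strand): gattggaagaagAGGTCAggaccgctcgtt
Clock RORE core (chr5:76303604-76303633, minus strand): agctttggcctcTGACCTgacagatgacag
Per1 RORE core (chr11:69098800-69098829, plus strand): gtgacacagcccTGACCTcagtgggggcca
In Arntl it lies 31 bases after the second of 2 listed start sites, in the transcribed first part of the gene, with the letters aaagt directly before it. Clock and Per1 carry it on the opposite strand. In Clock it belongs to 1 of 3 listed start sites, at 76303502, which lies inside the gene. In Per1 it belongs to 1 of 2 listed start sites. The D-box and the cyclic AMP element were in 0 of the 8 genes, and in 2.32% and 1.79% of all windows. The window of Dbp held none of the 5 words. A match is a description of letters, and binding was not measured.

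Clock, the activator that also acetylates histones, is on chromosome 5 (76209868 to 76304792, GRCm38, minus strand). It measured 4.58, 4.34 and 4.01 FPKM in Gel/S 1 to 3 and 6.19, 5.98 and 6.28 FPKM in C/D 1 to 3. Every C/D library was above every Gel/S library. The log2 fold change reached 0.56 with an SE of 0.0827 (edgeR adjusted p = 0.00102), and the gene passed under each of 14 other settings, with a highest adjusted p of 0.0478 on TPM. It rests on 855 to 1321 counts per library, the SD in C/D was 2.47% of the mean, and none of its exons overlap another annotated gene.

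Arntl encodes BMAL1, whose loss alone stops behavioural rhythms in mice, and lies on chromosome 7 (113207465 to 113314126, plus strand). Its level was 1.70, 1.15 and 1.45 FPKM in Gel/S 1 to 3 and 1.00, 0.835 and 0.954 FPKM in C/D 1 to 3. The groups did not overlap, although Gel/S 2 came close to C/D 1. The log2 fold change was −0.58 (SE 0.170, edgeR adjusted p = 0.0261). This was a gene near the floor of the test, since only 2.9% of tested genes had a lower mean FPKM. Counts were 140 to 204 in Gel/S and 98 to 108 in C/D, and the C/D spread (SD 9.24% of the mean) was about what counting alone gives at that depth (9.89%). The call was lost when any library but Gel/S 2 was left out, with adjusted p of 0.0707 and a log2 fold change of −0.45 without Gel/S 1, 0.0759 when Gel/S 3 was left out, and 0.0526, 0.105 and 0.0693 when C/D 1, 2 or 3 was. It was also lost with limma on log2(FPKM + 1), at −0.33 (0.0998), on log2(FPKM + 0.1), at −0.56 (0.116), and on log2(TPM + 1), at −0.52 (0.106).

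**Figure D2:**
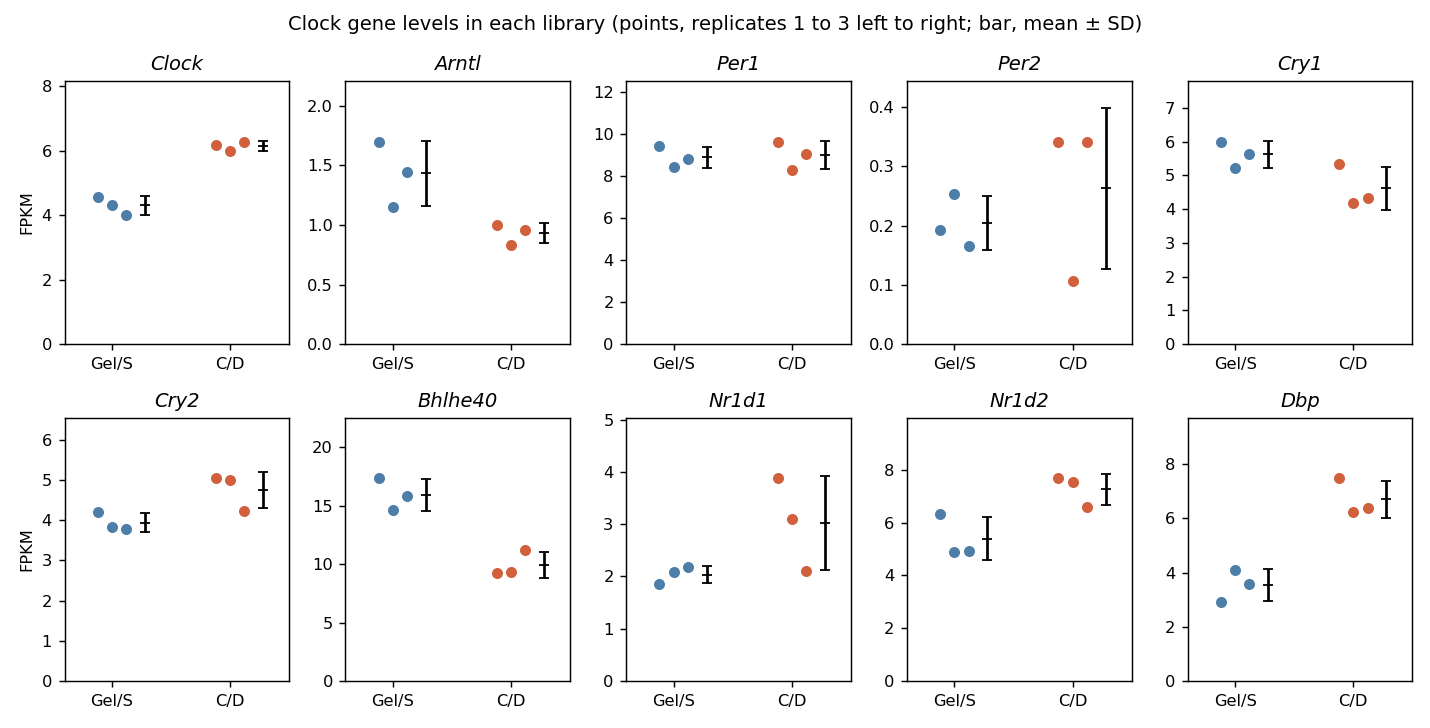
FPKM (vertical axis, from 0, a separate scale for each gene) in each Gel/S and C/D library, with the group mean ± SD (n = 3) beside the points. Clock, Arntl, Cry2, Bhlhe40, Nr1d2 and Dbp show no overlap between groups, while 1 C/D library of Nr1d1 lies among the Gel/S values.

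The repressors did not move as a group. Among the 4 tested, Cry2 rose, Bhlhe40 fell, and Per1 and Cry1 did not pass (median log2 fold change −0.09, range −0.64 to 0.31). Per1, a period gene that also responds directly to cyclic AMP and glucocorticoids, is on chromosome 11 (69095217 to 69109960). Its values were 9.44, 8.41 and 8.80 FPKM in Gel/S and 9.63, 8.28 and 9.07 FPKM in C/D. The ranges covered each other, with C/D holding both the highest and the lowest library. The log2 fold change was 0.06 (SE 0.0919, edgeR adjusted p = 0.649), with a 95% interval of 0.907-fold to 1.20-fold, and its sign turned on TPM (−0.07).

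Per2, the other period gene measured here as a clock component (chromosome 1, 91415982 to 91459324), was barely detected. It had 57 counts over the Gel/S libraries and 66 over the C/D libraries, at 0.192, 0.254 and 0.165 FPKM and at 0.341, 0.106 and 0.341 FPKM. The C/D libraries lay both above and below all Gel/S libraries. In the fit without a filter its log2 fold change was 0.34 (SE 0.365, edgeR adjusted p = 0.607), so no difference was detectable at this depth. Counting alone gives a spread of 22.9% and 21.3% of the mean in Gel/S and C/D.

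The cryptochromes, the stronger repressors of the CLOCK and BMAL1 pair, pointed in different directions. Cry1 (chromosome 10, 85131700 to 85185064) was at 5.996, 5.22 and 5.65 FPKM in Gel/S 1 to 3 and at 5.34, 4.17 and 4.34 FPKM in C/D 1 to 3. Only C/D 1 reached into the Gel/S range. Its log2 fold change of −0.24 (SE 0.128) did not pass (edgeR adjusted p = 0.174, 95% interval 0.696-fold to 1.03-fold). Cry2 (chromosome 2, 92403646 to 92434043) was at 4.21, 3.84 and 3.78 FPKM in Gel/S and at 5.04, 5.00 and 4.24 FPKM in C/D. The groups were separate by a narrow margin, between C/D 3 and Gel/S 1. The rise of 0.31 on the log2 scale (SE 0.107, edgeR adjusted p = 0.0471) is the weakest call among the 10 genes. Leaving out Gel/S 2 gave an adjusted p of 0.0663, Gel/S 3 gave 0.161, C/D 1 gave 0.144 and C/D 2 gave 0.159. DESeq2 gave 0.0610 and the fit without a filter 0.135, and the call held only without Gel/S 1 or C/D 3.

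Bhlhe40 encodes DEC1, a repressor at E-boxes that is also induced by hypoxia and by inflammatory signals, and lies on chromosome 6 (108660629 to 108666925). It was the highest of the 10 genes, at 17.3, 14.6 and 15.9 FPKM in Gel/S 1 to 3 and 9.22, 9.29 and 11.2 FPKM in C/D 1 to 3. All C/D libraries were well below all Gel/S libraries. The log2 fold change was −0.64 (SE 0.101, edgeR adjusted p = 0.00137), and it passed under all 14 other settings, between −0.75 and −0.59. Its paralog Bhlhe41, which encodes DEC2, moved the other way. Bhlhe41 rose from 20.0 ± 1.05 to 23.8 ± 1.20 FPKM (mean ± SD, n = 3; log2 fold change 0.30, edgeR adjusted p = 0.0255), a call that ended when Gel/S 3 (0.0570), C/D 2 (0.0792) or C/D 3 (0.110) was left out. Over all 14 other settings the call was kept in 7. A transcript model on the opposite strand covers 19.0% of the exon bases of Bhlhe41.

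Both REV-ERB genes had higher estimates in C/D, and 1 of them passed. Nr1d2, which encodes REV-ERB beta (chromosome 14, 18204054 to 18239127), was at 6.34, 4.90 and 4.94 FPKM in Gel/S 1 to 3 and at 7.68, 7.53 and 6.59 FPKM in C/D 1 to 3. Gel/S 1 was the high library of its group and came close to C/D 3. The log2 fold change was 0.47 (SE 0.117, edgeR adjusted p = 0.0121). Leaving out Gel/S 3 (0.0685), C/D 1 (0.0568) or C/D 2 (0.0553) ended the call, as did TPM (0.168). Without Gel/S 1 the log2 fold change was 0.60 (adjusted p = 0.000597).

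Nr1d1, which encodes REV-ERB alpha (chromosome 11, 98767932 to 98775333), was lower and more variable. Its values were 1.85, 2.08 and 2.18 FPKM in Gel/S 1 to 3 and 3.87, 3.09 and 2.10 FPKM in C/D 1 to 3. In C/D 1 and C/D 2 it was above all Gel/S libraries, and in C/D 3 it lay within their range, so that the SD in C/D was 29.5% of the mean where counting alone gives 8.61%. The estimate of 0.61 on the log2 scale (SE 0.213) just missed the threshold (edgeR adjusted p = 0.0531). Without C/D 3 it was 0.82 (0.0189), and without C/D 1 it was 0.39 (0.214). DESeq2 (0.0343) and the fit without a filter (0.0120, with a smaller SE of 0.175) put it past the threshold. The replicate block (0.088) and limma on log2(FPKM + 1) (0.129), log2(FPKM + 0.1) (0.127) or log2(TPM + 1) (0.198) did not. The gene overlaps Thra, a thyroid hormone receptor gene on the opposite strand, in 263 exon bases (8.55% of its own). Thra measured 4.61 ± 0.883 and 5.65 ± 0.342 FPKM (log2 fold change 0.34, edgeR adjusted p = 0.0850, and 0.0360 without Gel/S 1), and how far shared reads enter the value of Nr1d1 was not tested.

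Dbp, a bZIP transcription factor and one of the steepest-cycling outputs of the clock in many tissues, had the strongest change (chromosome 7, 45705088 to 45710203). It measured 2.93, 4.10 and 3.57 FPKM in Gel/S 1 to 3 and 7.48, 6.25 and 6.37 FPKM in C/D 1 to 3. The lowest C/D library was well above the highest Gel/S library. The rise of 0.96 on the log2 scale (SE 0.149, edgeR adjusted p = 0.00128) was larger in size than that of 96.4% of all genes tested. It passed under each of 14 other settings, between 0.77 and 1.09. Its exons share 539 of 2993 bases (18.01%) with Sphk2, a sphingosine kinase gene on the opposite strand. Sphk2 went the other way without passing, from 9.53 ± 0.933 to 7.98 ± 0.544 FPKM (log2 fold change −0.21, edgeR adjusted p = 0.141, and 0.0461 without Gel/S 2). How far shared reads enter the value of Dbp was not tested.

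The order of the genes by level also differed between groups. In Gel/S, Bhlhe40 (15.9 FPKM) stood clear of Per1 (8.88), followed by Cry1 (5.62), Nr1d2 (5.39), Clock (4.31), Cry2 (3.94), Dbp (3.53), Nr1d1 (2.03), Arntl (1.43) and Per2 (0.204). The neighbours Cry1 and Nr1d2, Clock and Cry2, and Cry2 and Dbp overlapped between libraries there. In C/D, Bhlhe40 (9.90 FPKM) and Per1 (8.99) overlapped at the top, then came Nr1d2 (7.27), Dbp (6.70) and Clock (6.15), which overlapped in turn, then Cry2 (4.76) and Cry1 (4.62), also overlapping. Nr1d1 (3.02), Arntl (0.930) and Per2 (0.263) were the last 3, as in Gel/S. Dbp was thus 7th in Gel/S and 4th in C/D.

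Ratios of FPKM within a library do not depend on how libraries are scaled, and set genes of the loop against each other. The ratio of Dbp to Arntl was 1.73, 3.56 and 2.47 in Gel/S 1 to 3 and 7.46, 7.49 and 6.68 in C/D 1 to 3. The C/D values were close together and all above Gel/S, with a ratio of means of 2.79. Clock to Arntl, the transcripts of the activator pair, went from 3.08 ± 0.591 to 6.64 ± 0.497 (SD, n = 3). Nr1d2 to Arntl went from 3.80 ± 0.422 to 7.86 ± 1.07, and Nr1d1 to Arntl from 1.47 ± 0.356 to 3.26 ± 0.921. In each of these 4 ratios the groups did not overlap. The same held for Per1 to Arntl (6.31 ± 0.887 and 9.68 ± 0.218), although Per1 itself did not pass. Since Arntl has about 100 counts in each C/D library and is common to all ratios over it, they are not separate findings. Cry2 to Cry1, which shares nothing with them, was 0.702, 0.735 and 0.669 in Gel/S and 0.943, 1.20 and 0.977 in C/D. Bhlhe40 to Dbp fell in every C/D library below every Gel/S library, with means of 4.65 ± 1.20 and 1.49 ± 0.261. These ratios are a description, with no test.

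**Figure D3:**
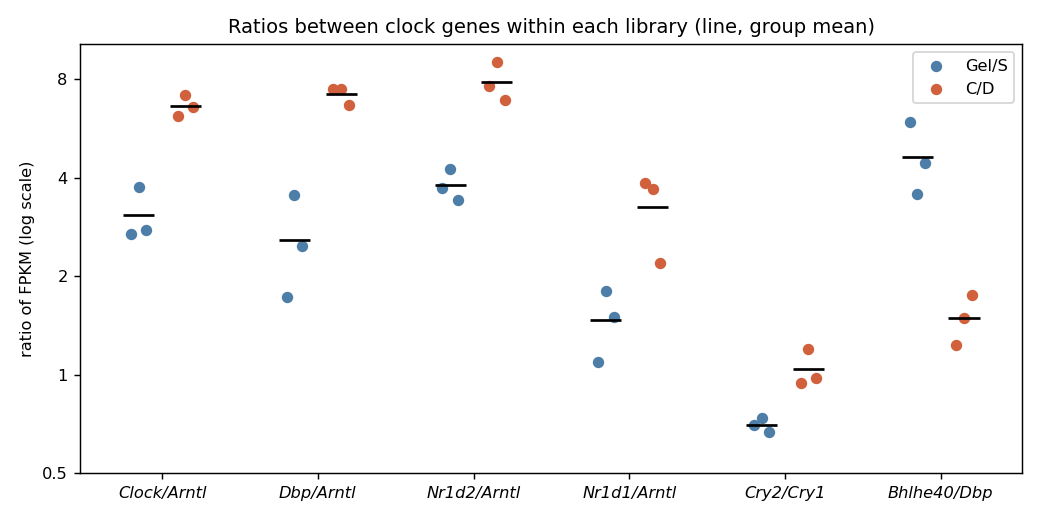
Ratio of FPKM between pairs of clock genes (vertical axis, log scale) in each library, Gel/S and C/D side by side, with a line at the group mean. Ratios over Arntl and the ratio of Cry2 to Cry1 are higher in all C/D libraries, and Bhlhe40 to Dbp is lower in all of them.

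Among other clock genes, 32 of 40 listed were tested, of which 7 rose, 5 fell and 20 did not pass (median log2 fold change −0.09). Over all genes tested, 27.0% were called, with 13.1% higher and 13.9% lower in C/D. The alternative activators were close to absent. Npas2, which can replace Clock, had 6 counts over the Gel/S libraries and 2 over the C/D libraries, and Arntl2 and Rora had 19 counts at most over the 6 libraries, with 0 for Rorb. At ROREs, then, mRNA was present for the REV-ERB repressors and nearly none for the activators Rora and Rorb. Hlf, a relative of Dbp, had 0 counts too.

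Further repressors were mixed. Besides Bhlhe41, Cipc, which inhibits CLOCK, rose by 0.28 (edgeR adjusted p = 0.0270), and no longer passed once Gel/S 3 (0.0972) or C/D 1, 2 or 3 (0.0724, 0.108 and 0.0647) was left out. Cipc kept its call in 5 of 14 other settings. Timeless, which acts mainly at replication forks in mammals, fell (log2 fold change −0.43, edgeR adjusted p = 0.0334), a call that leaving out Gel/S 2 (0.0742) or C/D 1 or 2 (0.0894 and 0.141) ended. Timeless kept it in 7 of 13 other settings. Nfil3, the opponent of Dbp at D-boxes, went from 14.1 ± 0.288 to 11.4 ± 0.955 FPKM without passing (log2 fold change −0.27, edgeR adjusted p = 0.0720), and Ciart had a log2 fold change of −0.28 (0.225). The ratio of Dbp to Nfil3 was 0.250 ± 0.0381 in Gel/S and 0.589 ± 0.0120 in C/D. Per3, the third period gene and a clock output in most tissues, lay below the level filter. It was at 0.801, 0.684 and 0.569 FPKM in Gel/S and at 1.25, 1.02 and 1.13 FPKM in C/D, with all C/D libraries higher. Fitted without a filter, its change was 0.71 on the log2 scale (SE 0.169, edgeR adjusted p = 0.000403). That fit takes little account of a gene's own spread between libraries. It gave Fosb and Kmt2a SEs of 0.1044 and 0.1045, against 0.2695 and 0.0821 in the filtered fit. The adjusted p of Per3 is thus not comparable with those of the filtered fit.

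Of 8 other outputs tested, 2 rose and 3 fell, where 13.1% of all genes tested rose and 13.9% fell. Tef, a bZIP relative of Dbp, rose by 0.30 (edgeR adjusted p = 0.0283), a call that did not survive leaving out Gel/S 3 (0.1003) or C/D 1, 2 or 3 (0.0940, 0.0876 and 0.0592). Tef kept the call in 4 of 13 other settings. Tsc22d3, a mediator of glucocorticoid action that also cycles, went from 5.31 ± 0.239 to 7.37 ± 0.449 FPKM (log2 fold change 0.52, edgeR adjusted p = 0.00377). In the other direction went Nampt, the rate-limiting enzyme of NAD salvage (−0.43, edgeR adjusted p = 0.00864), Noct, which removes phosphate from NADP cofactors (−0.50, 0.0112), and Wee1, a kinase that holds back mitosis (−0.46, 0.0204). Noct lost its call without C/D 3 (0.0514), and Wee1 without C/D 1 (0.0796) or C/D 3 (0.0747).

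Kinases and ubiquitin ligases set the life of PER and CRY proteins. Of 10 tested, 1 rose, 1 fell and 8 did not pass, where 27.0% of all genes tested were called. The range was −0.31 to 0.29 on the log2 scale. Among those that did not pass were the PER kinases Csnk1d (−0.12, edgeR adjusted p = 0.326) and Csnk1e (−0.23, 0.125). Btrc, a ligase of PER, rose by 0.29 (edgeR adjusted p = 0.0486), but this call was kept in 0 of 13 other settings. Leaving out any 1 of the 6 libraries ended it (0.0710 to 0.132), as did every other tool, filter or scaling run for it. Gsk3a fell by 0.31 on the log2 scale (edgeR adjusted p = 0.0327), a call that ended on leaving out Gel/S 3 (0.127) or C/D 1, 2 or 3 (0.0643, 0.107 and 0.116), and an antisense gene shares 28.3% of its exon bases. The call of Gsk3a was kept in 8 of 14 other settings.

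Among 9 cofactors, 2 rose, where 13.1% of all genes tested rose. Kmt2a, a histone methyltransferase known to work with CLOCK and BMAL1, was at 8.70, 8.65 and 8.57 FPKM in Gel/S and at 16.9, 15.8 and 15.9 FPKM in C/D. No C/D library came near the Gel/S values (log2 fold change 0.95, SE 0.0821, edgeR adjusted p = 6.29e-05). Crebbp, an acetyltransferase that assists the pair, rose by 0.38 (edgeR adjusted p = 0.00984, and 0.0624 without Gel/S 3). Its call was also lost with limma on FPKM (0.0610 and 0.0572) or TPM (0.226), and was kept in 9 of 13 other settings. Hdac3, the deacetylase through which REV-ERB represses, had a log2 fold change of −0.25 (edgeR adjusted p = 0.0551), and its partner Ncor1 0.04 (0.787).

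Known REV-ERB targets of macrophages were the last group. Of 6 listed, 4 were tested, 3 fell and 1 did not pass, where 13.9% of all genes tested fell. The list was chosen with earlier results of these data known. Cx3cr1, the fractalkine receptor, went from 168 ± 17.7 to 118 ± 6.99 FPKM (log2 fold change −0.47, edgeR adjusted p = 0.00628). Nlrp3, the inflammasome sensor, fell by 0.40 on the log2 scale (edgeR adjusted p = 0.00677). Ccl2, a monocyte chemokine, fell from 6.01 ± 0.946 to 3.01 ± 0.891 FPKM (log2 fold change −0.97, edgeR adjusted p = 0.0104, and 0.0511 without C/D 2). Il1b did not pass (−0.14, 0.694), Mmp9 had 36 counts in all and Il6 had 1. Of the other genes named above as repressed by REV-ERB proteins, Clock rose and Arntl fell, the latter with its call kept in 5 of 13 other settings. Cry1 (edgeR adjusted p = 0.174) and Nfil3 (0.0720) did not pass. Each of these genes also answers to other inputs, and the share of any of them in the change was not tested. The macrophage marker Csf1r fell in the same libraries (−0.48), and its part in these values was not tested either.

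**Figure D4:**
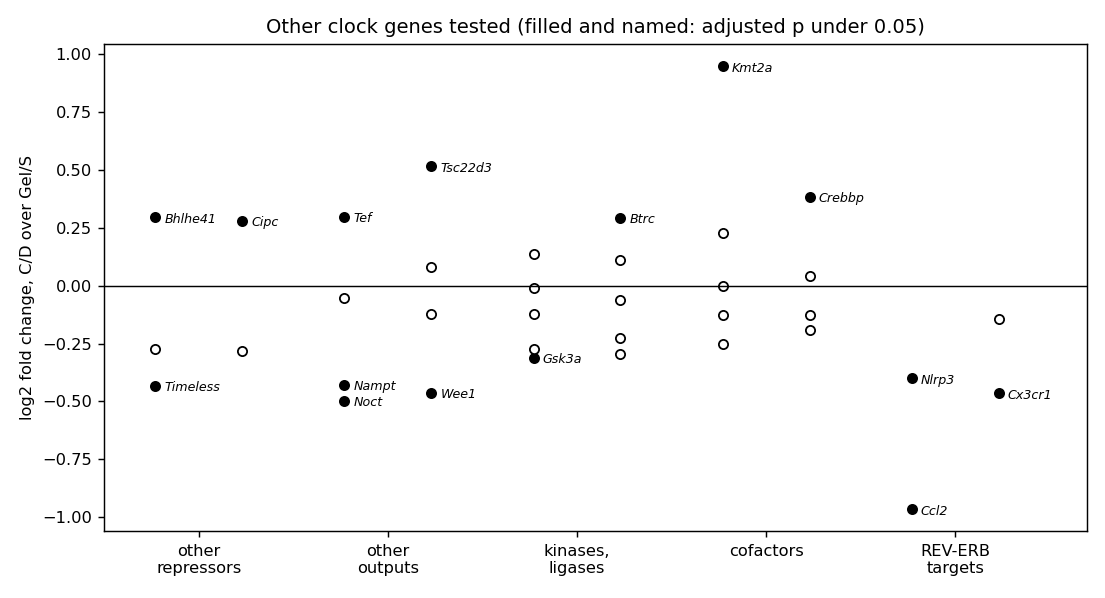
Log2 fold change of C/D over Gel/S (vertical axis) for the tested genes of 5 further lists, 1 point per gene, filled and named where the adjusted p is under 0.05 (edgeR). Calls lie on both sides of 0 in the repressor, output and kinase lists, and the 3 calls among REV-ERB targets are all below 0.

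The plot of the alternatives shows how far each of the 9 tested clock genes moved with the processing. Clock, Bhlhe40 and Dbp kept their call in all 14 alternatives run for them. Arntl kept it in 5 of 13, Nr1d2 in 10 of 14 and Cry2 in 2 of 13, and Nr1d1 gained one in 3 of 13. The sign held for 8 of the 9 genes in every alternative run, and Per1 was the exception.

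**Figure D5:**
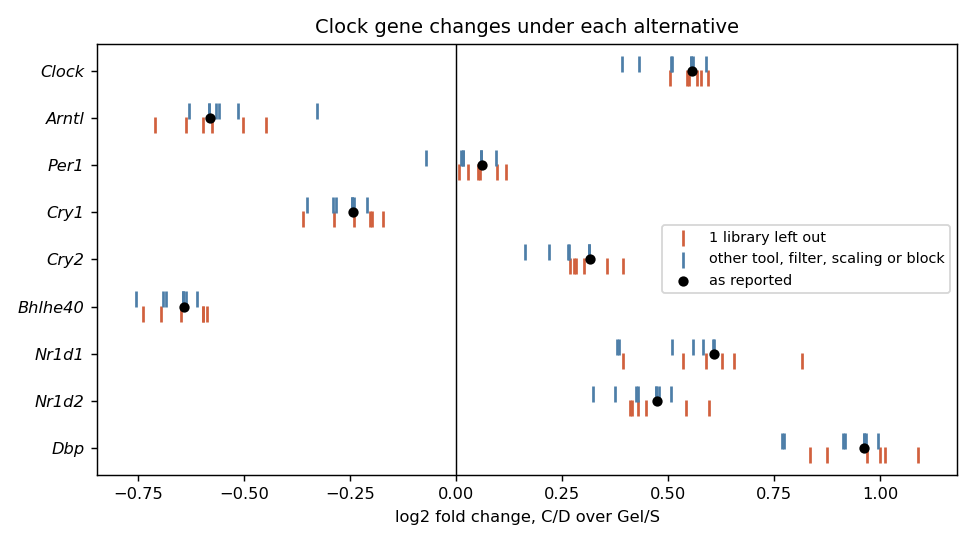
Log2 fold change of C/D over Gel/S (horizontal axis) for the 9 tested clock genes, as reported (black points), with 1 library left out (red ticks) and with another tool, filter, scaling or block (blue ticks). Only Per1 crosses 0, at −0.07 on TPM.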

How the data were processed

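RNA of 6 RAW264.7 libraries, 3 of Gel/S and 3 of C/D by their titles, was sequenced after a SMARTER mRNA-Seq preparation, per the labels' protocols. In the deposited table, columns named GEL were read as Gel/S and columns named US as C/D, since only C/D received ultrasound, an assumption behind all directions given here. The authors' counts per gene are raw, per the file headers. FPKM values were made by the authors from exon length and a library scaling that no source used here gives. The deposited signal columns are the authors' group means of scaled counts. The authors' deposited log2 fold changes set Gel/S over C/D and are printed with the sign turned. The deposited p-values and adjusted p-values are the authors' own. The submitters' processing notes name the builds GRCm38 and mm10. The aligner, the counter and the use of strand are each not given in the sources used here, so overlapping genes on opposite strands cannot be separated.

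Of 54532 entries, 0 lacked a gene name, 27 symbols turned into dates were restored from gene IDs, and the 100 symbols with several entries were summed. Starts and ends of 98.33% of the IDs found in GENCODE M21 were the same there. Genes with a mean FPKM of at least 1 (11708) were fitted in edgeR 4.0.16 (quasi-likelihood, TMM factors, R 4.3.3) over all 6 libraries. The adjusted p is Benjamini-Hochberg over all of them. The SE was taken from the log2 fold change and its F statistic. The pipeline was tested on simulated data. Alternatives used DESeq2 1.42.0, limma 3.58.1 on log2 FPKM or TPM with a pseudocount of 1 (0.1 as well for FPKM), RLE factors, no filter, a mean of at least 5 FPKM, a replicate block and each library left out. The members and lists were chosen with earlier results of these data known. Named are all 10 members, and from each other clock list every called gene, or the 2 with the smallest p where none was called. Genes added beyond this rule (Csnk1d, Csnk1e, Hdac3, Ncor1, Nfil3, Ciart and Il1b, which did not pass, and Per3, below the filter) were chosen after their values were seen. A few genes of the lists are not reported here.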

Additional observations from a re-analysis of the deposited data

How the results depend on the processing

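Over the 9 tested clock genes and their alternatives, 96 of 123 values kept direction and side of the threshold, 23 lost the call, 3 gained one (Nr1d1) and 1 reversed, Per1 at −0.0713 on TPM. Over all 38 genes followed in this way, 407 of 520 values kept both, 107 lost the call and 5 gained one, and on TPM the calls of Bhlhe41, Cipc, Tef, Tsc22d3, Gsk3a, Btrc, Crebbp, Crem, Nr4a1 and Fosb were among those lost. The count of clock genes higher in C/D (4) was 2 on TPM and 2 to 5 with 1 library left out. The count lower (2) was 1 with a mean of at least 5 FPKM, where Arntl is no longer tested, 1 with limma on log2(FPKM + 1), log2(FPKM + 0.1) or log2(TPM + 1), and 1 to 2 with 1 library left out. Over all genes, 1532 higher became 1020 with limma on log2(FPKM + 1), 1008 with the pseudocount of 0.1 and 633 on TPM. With 1 library left out, 887 to 1989 were higher and 876 to 2089 lower (1631 as reported), with the fewest lower without C/D 2 and the fewest higher without Gel/S 3. The cause was not tested. Same-numbered libraries of the groups did not deviate together (correlations of −0.06, −0.06 and 0.05, and 0 of 3 matched best with their own number), so the numbers were not used as pairs. With the replicate block, 3 clock genes were higher and 2 lower, and 1242 and 1302 of all genes. The fewest counts lie behind Per2 (123 in all), Nr1d1 (703) and Arntl (820).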

Other observations

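Glucocorticoids and cyclic AMP can reset the clock through Per1, so genes that respond to either were examined with it. Of 6 glucocorticoid targets, 5 were tested, 1 rose (Tsc22d3, log2 fold change 0.52) and 2 fell. Over all genes tested, 13.1% rose and 13.9% fell. Sgk1, a kinase, fell from 5.17 ± 1.16 to 0.882 ± 0.134 FPKM (log2 fold change −2.50, edgeR adjusted p = 4.51e-05), and Fkbp5, a chaperone of the glucocorticoid receptor, fell by 0.54 on the log2 scale (edgeR adjusted p = 0.00449). Klf9 (−0.06, edgeR adjusted p = 0.802) and Dusp1 (−0.32, 0.216) did not pass, and Zbtb16 had 0 counts.

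Of 13 early genes induced by serum or cyclic AMP, 10 were tested, 2 rose, 5 fell and 3 did not pass. The share called over all genes tested was 27.0% (13.1% higher, 13.9% lower). Nr4a1, an orphan nuclear receptor, went from 1.86 ± 0.557 to 3.38 ± 0.376 FPKM (log2 fold change 0.91, edgeR adjusted p = 0.00762). Crem, a cyclic AMP response factor, rose by 0.49 (edgeR adjusted p = 0.0275), a call lost without Gel/S 1 (0.0585), C/D 1 (0.0865), C/D 2 (0.0865) or C/D 3 (0.0518). Crem kept it in 5 of 13 other settings. The zinc finger factors Egr1 (−0.70, edgeR adjusted p = 0.00254) and Egr2 (−0.76, 0.00475) fell, as did Atf3 (−0.45, 0.00728), a stress-induced bZIP factor. Fosb (−0.86, edgeR adjusted p = 0.0343) shrank to −0.41 without Gel/S 1 (0.0555) and lost its call also without C/D 1 (0.149) or C/D 2 (0.116). Junb (−0.33, edgeR adjusted p = 0.0449) lost its call when any library except Gel/S 1 was left out, with a highest adjusted p of 0.155 without C/D 1. A mean of at least 5 FPKM (0.0622) and limma on log2(FPKM + 1) (0.0524) or log2(FPKM + 0.1) (0.0521) also ended it. Junb kept its call with DESeq2 (0.0126) and limma on TPM (0.0250). Fos was 348 ± 41.0 and 297 ± 55.2 FPKM and did not pass (−0.18, edgeR adjusted p = 0.317).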
